A study of Arabidopsis thaliana with 16 samples.

Results

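The sites bound by WRKY18 in Arabidopsis thaliana seedlings before and after the immune elicitor flg22 were compared through the 4 peak lists of the WRKY18-HA line: 2 h of flg22, replicates 1 and 2, and untreated seedlings (0 h), replicates 1 and 2. These lists hold 6898 of the 16600 peaks of the series. All seedlings were 12 days old and of Col-0 background. The line is named in the labels as Col-0 WRKY18-HA, and in the design text as a complementation line. Treated seedlings received fresh medium with 1 µM flg22 for 2 h, and the untreated ones were taken at 0 h. No untreated 2 h seedlings are among the samples, so flg22 cannot be told apart from elapsed time or handling. Chromatin was precipitated with an anti-HA antibody, and the authors called the peaks of each library against untagged Col-0 WT matched for time and replicate number, which means that the 2 h and 0 h lists had different controls. The labels do not state how many transgenic lines were used or which promoter drove the tagged protein, and reads of the endogenous WRKY18 locus and of the transgene cannot be told apart.

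WRKY proteins are plant transcription factors whose WRKY domain recognises W-box elements in promoters, including those of other WRKY genes. WRKY18 belongs with WRKY40 and WRKY60 to group IIa, whose members form homo- and heterocomplexes. It is known as a regulator of basal defence that acts partly redundantly with WRKY40. The peptide flg22 is the part of bacterial flagellin perceived by the receptor kinase FLS2, and its perception sets off calcium influx, MAP kinase activation and broad changes in transcription.

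WRKY18 was found at many sites before treatment, and nearly every reproducible site of untreated seedlings was also found after flg22. The 2 h lists held 1801 and 2994 peaks (replicates 1 and 2), against 260 and 1843 peaks in the 0 h lists. Replicate 1 at 0 h was thus far shorter than the other lists. The ratio of 2 h to 0 h was 6.93 in replicate 1 and 1.62 in replicate 2, and the mean log2 ratio was 1.75 ± 1.48 (SD, n = 2; exact permutation test over the 4 libraries, two-sided p = 0.667, and no p under 0.333 is possible). Without 0 h replicate 1 the log2 ratio was 0.33, and without 0 h replicate 2 it was 3.16. The shortest list also had the fewest tags per peak: the median HA tag count was 624 and 678 at 2 h, against 237 and 446 in untreated seedlings, and its part in the difference was not tested. The median WT tag count at the same peaks was 16 and 19 at 2 h, against 13 and 14 at 0 h. The labels state 7 to 20 M reads per sample, with no total for each. Some peak numbers are absent from the lists (67 and 173 at 2 h, 27 and 258 at 0 h), among them a few near the top, so the absence of a peak does not show that a site was unbound.

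Merging all peaks that overlapped by at least 1 bp gave 3516 sites. A site was called reproducible at a time when both lists of that time held a peak there. Of the 1446 reproducible 2 h sites, 913 (63.1%) also had a 0 h peak in at least 1 list and are called kept. The other 533, or 36.9% (exact 95% binomial interval 34.4 to 39.4), had none and are called gained. Intervals here and below cover counting error only. The kept sites divide unevenly: 195 had a peak in both 0 h lists, 690 in 0 h replicate 2 alone and 28 in 0 h replicate 1 alone. The gained share therefore follows which 0 h list is used. Within replicate 1, 86.4% of 1753 sites at 2 h had no 0 h peak, and within replicate 2, 48.1% of 2956. Judged against 0 h replicate 1 alone, the gained share of reproducible sites was 84.6%.

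Few reproducible sites were lost. Of the 214 reproducible 0 h sites, 195 (91.1%) had a peak in both 2 h lists, 15 in 1 of them and 4 in neither. The 4 lost sites were 1.87% of the total (interval 0.512 to 4.72). Judged from 0 h replicate 2 alone, 13.6% of its 1817 sites had no 2 h peak, and judged from 0 h replicate 1 alone, 3.52% of 256. Without 2 h replicate 1 or 2 h replicate 2 the lost share was 5.14% or 5.61%. In the longer 0 h list, of replicate 2, overlap with the 2 h lists followed peak strength. Its 1817 sites were divided into 3 parts by score. A peak in either 2 h list was found at 99.2% of the strongest 606, 88.8% of the middle 605 and 71.1% of the weakest 606. In 2 h replicate 1, the list of the other replicate number, these shares were 74.4%, 46.3% and 31.0%. In both 2 h lists they were 72.1%, 44.6% and 29.4%.

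**Figure D1:**
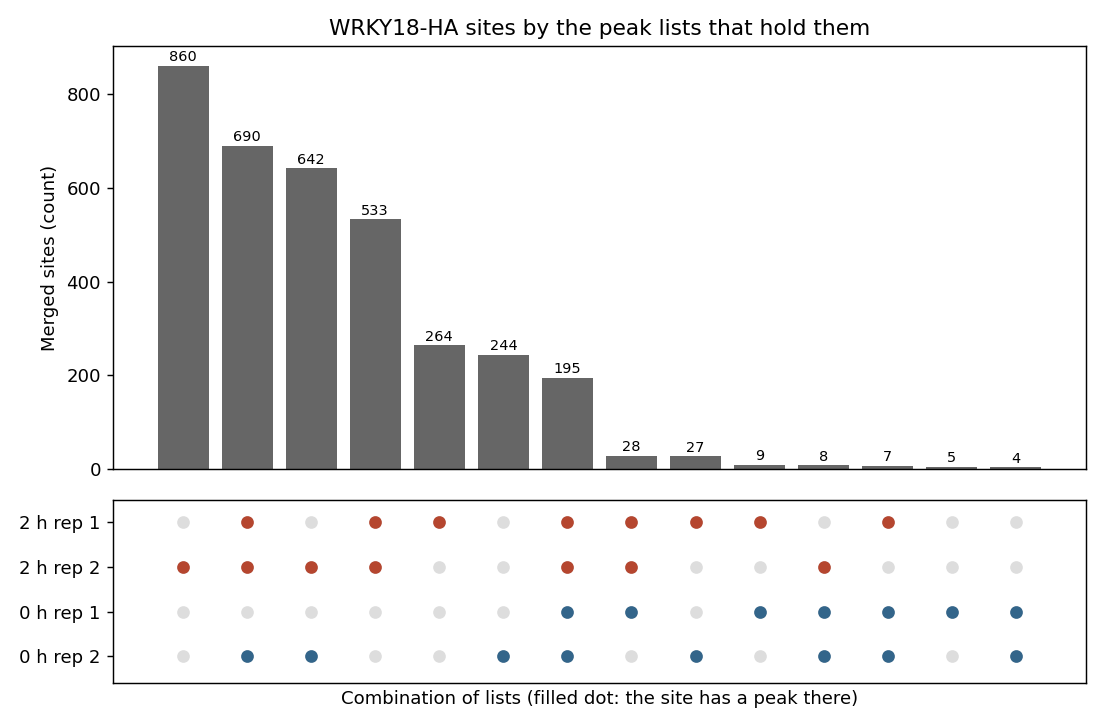
Number of merged WRKY18-HA sites (bars, count) for each combination of the 4 peak lists, with filled dots for the lists that hold a peak (red, 2 h; blue, 0 h). The largest bars are the 860 sites of 2 h replicate 2 alone and the 690 sites found in all lists but 0 h replicate 1, while the 4 lost sites form the last bar.

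Since the lists differ in length, each was also cut to 260 peaks by score, as many as 0 h replicate 1 has. The 2 h lists then shared 57.5% of their peaks, and the 0 h lists 45.6%. Lists of different times shared 48.1% in replicate 1 and 55.0% in replicate 2, and 36.9% and 42.1% where both time and replicate number differed. The strongest peaks of 2 h and 0 h thus overlapped within a replicate number about as much as those of the same time did across replicates. Overlap between times was lower than within times by 6.01 percentage points on average (exact permutation test, two-sided p = 1, smallest possible 0.333). With so few ways to pair the libraries, this test cannot show a difference between times. Between times within a replicate number the mean was 51.5%, the same as the mean within times. Among the 3 longer lists, cut to 1801 peaks, 2 h replicate 2 shared 65.9% with 0 h replicate 2 and 65.8% with 2 h replicate 1.

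Peak maxima lay close together between times where the replicate number was the same. At the 179 sites with exactly 1 peak in every list, the maxima of 2 h and 0 h lay a median of 19 bp apart in replicate 1 and 9 bp in replicate 2. The maxima of the 2 h replicates lay 22 bp apart, and those of the 0 h replicates 38 bp. Where both time and replicate number differed, the medians were 24 and 30 bp. Maxima lay within 50 bp of each other at 83.2% and 83.8% of these sites between times within replicates 1 and 2, at 67.0% between the 2 h replicates, and at 60.3% and 59.8% where both differed. The order of scores was closest between times in replicate 2: Spearman's rho over the 195 sites shared by all lists was 0.71 between 2 h and 0 h in replicate 2, 0.39 in replicate 1, 0.62 between the 2 h lists, 0.29 between the 0 h lists, and 0.28 and 0.15 where both differed. These coefficients describe sites within single libraries, which differ in tag totals and, for 0 h replicate 1, in median peak width. A further 642 sites, 18.3% of all, had a peak in replicate 2 at both times and in neither list of replicate 1, and they ranked near the middle of both lists (median percentile 54.1 at 2 h and 55.2 at 0 h, where low percentiles are strong).

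**Figure D2:**
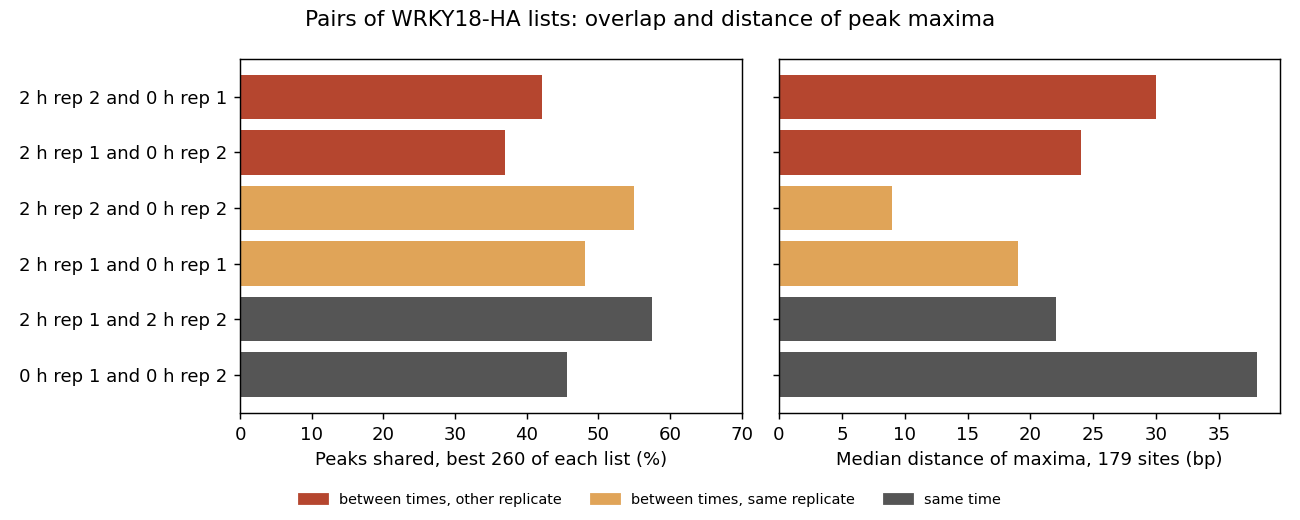
Share of peaks in common among the 260 best-scoring of each list (left, %) and median distance between peak maxima at 179 single-peak sites (right, bp) for the 6 pairs of WRKY18-HA lists, coloured by whether time or replicate number is shared. Pairs of different times with the same replicate number share 48.1% and 55.0%, between the 45.6% and 57.5% of the pairs of the same time, and their maxima lie 19 and 9 bp apart.

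Of the 195 sites present in all 4 lists, the strongest was at WRKY18 itself. The peak score is the authors' own value, with no stated scale. The lowest score in the lists was 9.99962 and 10.034 at 2 h, against 10.0377 and 9.99898 at 0 h. A site scoring near these values can be in or out of a list through a small difference in score. Gained and lost labels of such sites need not mean a change in binding. Scores of the 2 h and 0 h lists are given side by side as deposited, and comparisons between times rest on ranks within each list. At the WRKY18 locus (AT4G31800, chromosome 4, 15378842 to 15383984, build TAIR10, intergenic) it was 262 and 209 at 2 h, against 238 and 272 at 0 h, the highest score of each list. This region is 5143 bp wide, against a median of 844 bp over all kept sites, and held 31147 and 28878 HA tags at 2 h, against 10966 and 28482 at 0 h. WT tags there numbered 181 and 196 at 2 h, against 231 and 127 at 0 h.

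The other 9 strongest of these sites were spread over the 0 h lists, in replicate 1 from rank 28 (MIK2) to rank 199 (AT1G62301) of 260. PEN3 (AT1G59870), encoding an ABC transporter of penetration resistance, had a site 507 bp before its start with scores of 105 and 110 at 2 h, against 21.5 and 39.6 at 0 h. BZIP60 (AT1G42990), a transcription factor gene of the endoplasmic reticulum stress response, scored 130 and 83.4 at 2 h, against 16.1 and 41.1 at 0 h. Scores at NADK1, an NAD kinase gene, were 84.6 and 111 at 2 h, against 19.4 and 51.3 at 0 h. Among the 195 shared sites, PEN3 ranked 4 and 8 at 2 h, against 41 and 56 at 0 h. The site of MIK2 (AT4G08850), a receptor kinase gene, scored 72.3 and 102 at 2 h, against 25.2 and 49.5 at 0 h. AT1G17147, encoding a VQ-motif protein of the kind that binds WRKY factors, scored 73.3 and 117 at 2 h, against 15.0 and 84.0 at 0 h. The remaining ones were LPA2, AT1G65500, AT4G20006 and AT1G62301, the last 3 listed as hypothetical proteins. The AT1G62301 region merges several peaks over 4434 bp: its maximum lay at 23024204 and 23024178 at 2 h, against 23021982 and 23024182 at 0 h, so the 0 h replicate 1 peak is at another place of the region.

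The genes of the other group IIa members had sites as well, spread unevenly over the lists. WRKY60 (chromosome 2, 10628071 to 10629653, promoter) scored 86.9 and 70.7 at 2 h, against 36.8 in 0 h replicate 1, and had no peak in 0 h replicate 2. It was the only site among the best 10% of the other 3 lists that 0 h replicate 2 lacked. The promoter of WRKY40 (chromosome 1, 30382162 to 30383788, 716 bp before the start) had a peak in 2 h replicate 2 alone, with a score of 34.4. A neighbouring site at 30378646 to 30381063, given by the authors to WRKY40 in 1 list and named here by AT1G80831, was in all 4 lists with scores of 58.3 and 92.6 at 2 h, against 32.4 and 50.3 at 0 h. The converse case was PUP18, a purine permease gene singled out after its values were seen: it scored 90.8 in 2 h replicate 1, against 71.5 and 63.6 at 0 h, and had no peak in 2 h replicate 2. Both absences concern places that ranked among the best of the other lists. The list of 0 h replicate 1 lacked 11 sites in the best 10% of the others, among them FH4, a formin gene, with scores of 128 and 134 at 2 h, against 68.1 in 0 h replicate 2. CYP81D8 (a cytochrome P450) scored 88.5 and 100 at 2 h, against 70.6 there, and ACS6 (an ethylene synthesis enzyme) 56.1 and 74.9 at 2 h, against 33.2.

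Gained sites had lower 2 h scores than kept sites, with no test of the difference. Their median score was 15.2 and 15.7 in 2 h replicates 1 and 2, against 19.3 and 27.1 at kept sites in the same lists. None of the 10 strongest reproducible 2 h sites was gained, against 2 of the best 50, 5 of the best 100 and 78 of the best 500. Over all 1446 reproducible 2 h sites, 36.9% were gained. Values exist at 2 h alone for these sites, since the 0 h lists hold no peak there.

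The leading gained site lay beside a kept one. AT1G65500, a hypothetical protein, had its gained site at 24355781 to 24356759 of chromosome 1, 1529 bp before the start, with scores of 64.5 and 82.7 at 2 h and no 0 h peak, while its kept site at 24356932 to 24358052 scored 124 and 82.0 at 2 h, against 16.5 and 26.7 at 0 h. CRK14 (chromosome 4, 12156581 to 12157718), encoding a cysteine-rich receptor-like kinase, had scores of 88.5 and 40.6 at 2 h in a peak centred 58 bp before its start. At APK (AT2G14750), whose kinase makes the activated sulfate used for glucosinolates, the scores were 65.3 and 31.9. AT5G53830, another VQ-motif gene, had 42.2 and 42.9. The other 6 of the 10 leading gained sites were at AT3G13594, AT2G36680 (a vacuolar sorting protein), AT1G58420, AT5G35736 (a pseudogene), AT5G09430 (an alpha/beta-hydrolase) and AT3G48640, with scores between 33.8 and 71.4. A gained site did not always mean a gene without earlier binding: 71 of the 522 genes assigned to gained sites had a 0 h peak at another site.

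The 4 lost sites stood in the middle or lower part of the 0 h lists. IDD11, a zinc-finger transcription factor gene, had no 2 h peak, against scores of 15.2 and 13.8 at 0 h, where it ranked 117 of 260 and 1081 of 1843. At AT4G34770, a SAUR-like auxin-responsive gene, the 0 h scores were 12.0 and 11.7, and at AT2G21210, of the same family, 11.4 and 10.6. The last was assigned to the tRNA gene AT3G61825, with 10.3 and 12.3. These 3 ranked between 189 and 249 of 260 and between 1325 and 1693 of 1843. Their scores lay near the lowest of the 0 h lists (10.0377 and 9.99898), so their loss may rest on a small difference in score.

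Relative strength was compared at the 195 sites present in all 4 lists, ranked by score in each list among those same sites. A site was called higher when both 2 h ranks were better than both 0 h ranks, and lower when both were worse. There were 41 sites of each kind, 21.0% of the 195 in either direction, and the ranks of the other sites overlapped. With so few ranks per time, part of the sites meet each rule without any change. These counts are therefore not numbers of changed sites. Ranks among the same sites have a fixed sum, so gains in rank are balanced by losses. The sites ranked higher included PEN3, BZIP60, NADK1, MIK2, the ethylene synthesis gene EFE (ACO4) and the anion channel homologue SLAH2. Sites ranked lower included ERF-1, SAUR15 and the sodium/proton exchanger gene NHX2.

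The largest gain in rank was at PUP7 (chromosome 4, 10070993 to 10072028), which encodes a purine permease. Its scores were 68.2 and 68.3 at 2 h, against 13.2 and 18.4 at 0 h, and its ranks 23 and 25 at 2 h, against 127 and 162.5 at 0 h. PUP1, of the same family, scored 68.8 and 32.4 at 2 h, against 10.8 and 13.4 at 0 h. Its peak lay 3270 bp before the assigned start, at the end of the neighbouring gene. MPK11, a MAP kinase gene induced in immunity, scored 44.2 and 39.1 at 2 h, against 11.7 and 13.3 at 0 h, 44 bp before the start. AT5G50860, a protein kinase gene, scored 91.5 and 39.99 at 2 h, against 11.0 and 20.1 at 0 h, and AT1G14730, a cytochrome b561 gene, 56.0 and 82.7 at 2 h, against 11.2 and 36.3 at 0 h. In none of these 5 did the deposited scores of the times overlap. The 5 were chosen by ranks of the same scores, so this adds no support.

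At the other end, AT4G00755, an F-box protein gene, scored 14.2 and 16.8 at 2 h, against 16.7 and 37.8 at 0 h, and its mean rank was 183.5 at 2 h, against 71 at 0 h. AT5G03140, a lectin receptor kinase gene, had 23.9 and 25.1 at 2 h, against 33.7 and 38.3 at 0 h. MSL6, a mechanosensitive channel gene, had 18.1 and 32.3 at 2 h, against 24.4 and 39.9 at 0 h. Scores at AT1G54440, an exosome-related RRP6-like gene, were 22.4 and 37.4 at 2 h, against 35.6 and 43.8 at 0 h, and at AT1G29980 30.2 and 22.5 at 2 h, against 29.4 and 37.8 at 0 h. The deposited scores of the times overlapped at 4 of these 5, all but AT5G03140, while the ranks did not, by the rule of the call. When fold over WT replaced the score, AT5G50860 and AT1G54440 were no longer called.

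**Figure D3:**
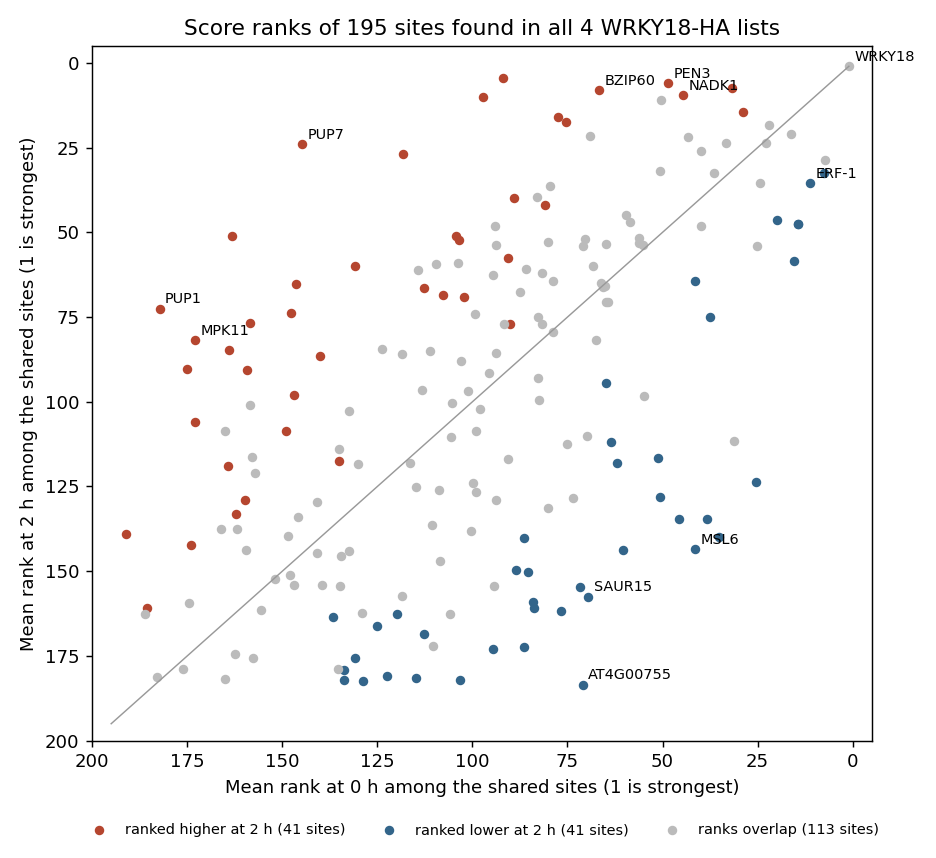
Mean score rank at 2 h (vertical) against mean rank at 0 h (horizontal) of the 195 sites found in all 4 WRKY18-HA lists, where 1 is strongest and the line marks equal ranks. Sites called higher (red, 41) lie above the line and those called lower (blue, 41) below it, with PUP7, PUP1 and MPK11 far from it and WRKY18 at rank 1 at both times.

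HA tag counts at the same 195 sites were tested across libraries. With edgeR's quasi-likelihood test, no replicate block and Benjamini-Hochberg adjustment, 0 sites were higher and 0 lower at 2 h (0.00% in each direction), against 16 and 14 at an unadjusted p under 0.05, and DESeq2 called 0 and 1. The test measures change relative to the other shared sites, whose median log2 change was 0.04. The lowest adjusted p belonged to AT4G00755, with 548 and 691 tags at 2 h, against 367 and 1311 at 0 h (log2 change -1.76 ± 0.33 SE, adjusted p = 0.221). PUP7 held 2327 and 2367 tags at 2 h, against 179 and 531 at 0 h (log2 1.34 ± 0.36 SE, adjusted p = 0.256). At PEN3 there were 4798 and 4909 tags at 2 h, against 337 and 1278 at 0 h (log2 1.31 ± 0.36 SE, adjusted p = 0.256). Tags over all 195 sites summed to 382306 and 479593 at 2 h, against 70460 and 268401 at 0 h, which the relative scale removes. Peak widths differ between lists as well, with medians of 584 and 580 bp at 2 h, against 422 and 584 bp at 0 h, and their part in the tag counts was not tested. Without 0 h replicate 2 the test called 17 sites higher and 3 lower of 223, and without 0 h replicate 1 it called 3 higher and 0 lower of 885. Each of these fits has a single 0 h library, assumed to vary like the 2 h pair, and covers another set of sites. A fit of all 4 libraries with a block for replicate number called 23 sites higher and 25 lower of the 195. The labels link samples of the 2 times by that number only, and do not say whether it marks a batch. Deviations of same-numbered libraries correlated at 0.69 over these sites. With 2 pairs, neither fit is preferred here.

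The location of peaks relative to genes was nearly the same at both times. The share of peaks from 1000 bp before the start to the start was 50.1% and 50.5% at 2 h, against 48.5% and 52.0% in untreated seedlings. On average the times differed by 0.03 percentage points (50.3 ± 0.27% at 2 h, against 50.2 ± 2.53% at 0 h, SD, n = 2 each; exact permutation test, two-sided p = 1, smallest possible 0.333). The median peak lay 316 and 355.5 bp before the start at 2 h, against 311.5 and 345 bp at 0 h. By class, 49.0% of gained sites (interval 44.6 to 53.3) and 53.0% of kept sites (49.7 to 56.3) were in that window, and 1 of the 4 lost sites. Gained and kept sites were annotated as promoter in 52.3% and 54.8%, as transcript end in 17.1% and 17.7%, as intergenic in 22.3% and 21.4%, and as intron in 5.07% and 4.60%.

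**Figure D4:**
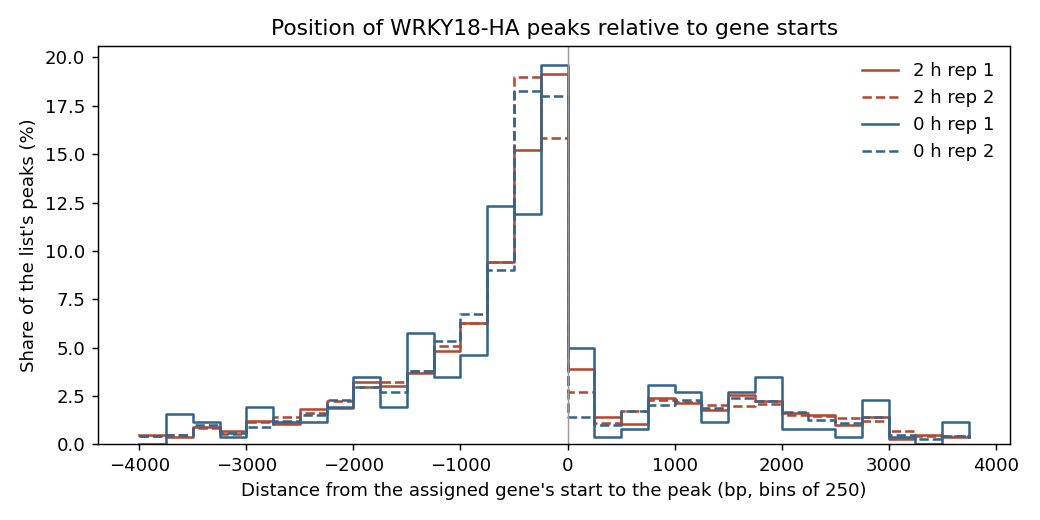
Share of each list's peaks (vertical, %) by distance from the assigned gene's start (horizontal, bins of 250 bp) in the 4 WRKY18-HA libraries (red, 2 h; blue, 0 h; solid and dashed lines, replicates 1 and 2). All 4 lists peak in the bins just before the start, with medians between 311.5 and 355.5 bp upstream.

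The 2 h target genes, those the authors assigned to reproducible 2 h sites, numbered 1366, or 3.60% of the 37899 nuclear loci. Of these, 890 (2.35% of loci) were kept and 476 (1.26%) gained, so gained genes were 34.8% of the targets. Reproducible 0 h sites had 223 genes (0.588%), and 6 genes (0.0158%) were lost. A 0 h peak was assigned to 218 of the 1366 in replicate 1 and to 863 in replicate 2, so most genes are kept through 0 h replicate 2. A gene counts as a 2 h target when at least 1 peak of the site in a 2 h list was assigned to it, as kept when any 0 h peak was, and as gained when none was. Gene and site classes can differ: 25 of the 476 gained genes stood only at kept sites, whose 0 h peak was given to a neighbour, and 24 of the 890 kept genes stood only at gained sites, with their 0 h peak elsewhere. Scores given for a gene are those of its best peak in each list. The gene lists below were chosen with earlier results of these data known, and their counts are descriptions.

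Hormone genes that were 2 h targets were mostly kept. Over all 1366 targets, 34.8% were gained. All 13 targets among 24 ethylene genes had a 0 h peak, among them genes of synthesis (ACS2, ACS6, ACS7, ACS8), signalling (EIN2, EBF1, EBF2) and response factors (ERF1, ERF2, ERF6, ERF-1). The 0 h peak was in replicate 2 for all 13, and in replicate 1 as well for 3. ACS7 stood only at a gained site, with its 0 h peak elsewhere. EBF2, an F-box gene that restrains ethylene signalling, scored 70.3 and 82.7 at 2 h, against 24.5 and 62.6 at 0 h. ERF-1 scored 57.2 and 60.8 at 2 h, against 44.3 and 59.2 at 0 h. Salicylic acid genes gave 7 kept and 0 gained targets of 24. ICS1, the isochorismate synthase of salicylic acid production, scored 75.8 and 51.0 at 2 h, against 19.1 in 0 h replicate 2. PBS3, which acts after ICS1, scored 48.7 and 46.2 at 2 h, against 22.0 there, and ALD1, of the pipecolic acid pathway, 38.8 and 82.0 at 2 h, against 28.1 there. EDS1, EDS5, FMO1 and NIMIN1 were the others, and NIMIN1 alone had a peak in both 0 h lists. Abscisic acid genes gave 4 kept and 0 gained of 21, led by the catabolic gene CYP707A3 with 32.4 and 86.9 at 2 h, against 70.1 in 0 h replicate 2. NCED3, also kept, stood only at gained sites, with its 0 h peak elsewhere. Jasmonate genes were few, with LOX3 kept and LOX4 gained of 23. JAZ6 is not counted as a 2 h target, although it names a site found in all 4 lists. It had peaks of its own in both 0 h lists and in 2 h replicate 2.

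Among genes of indole metabolism and penetration resistance, 9 targets were kept and 4 gained. All 5 targets among 10 indole glucosinolate genes were kept (PEN2, MYB51, CYP81F2, IGMT1, IGMT2). IGMT1, an indole glucosinolate methyltransferase gene, scored 25.5 and 25.5 at 2 h, against 20.2 in 0 h replicate 2. At PEN2, the gene of an atypical myrosinase, the best peak of 2 h replicate 1 lay 1888 bp before the start and that of 2 h replicate 2 lay 67 bp before it, so their scores are not set side by side. For camalexin, the last enzyme gene, PAD3, was kept with 17.8 and 39.2 at 2 h, against 27.4 in 0 h replicate 2, while CYP79B2 and GSTF6 were gained, 3 of 7 in all. In the penetration list of 9, PEN3, SNAP33 and MLO12 were kept, and the mildew susceptibility genes MLO2 (19.5 and 14.4 at 2 h) and MLO6 (12.2 and 10.3) were gained. The MLO6 scores lay near the lowest of the 2 h lists (9.99962 and 10.034), so its class may rest on a small difference in score.

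Pattern perception gave 9 kept and 2 gained targets of 28. Besides MIK2, the receptor genes PEPR1 (33.1 and 32.7 at 2 h, against 20.7 in 0 h replicate 2) and LYM2 (32.7 and 32.1 at 2 h, against 24.8 and 25.2 at 0 h) were kept, as were WAK2, PUB12, BIR1, NILR1, BIK1 and CERK1. The flagellin receptor gene FLS2 counted as a gained gene through a peak 667 bp before its start with a score of 33.6 in 2 h replicate 1, but the site is a kept one, whose other peaks were given to a neighbouring gene. PUB24, an E3 ligase gene, was the other. In the danger peptide list of 4, PROPEP3 was kept and PROPEP2 gained. MAP kinase cascades gave 3 kept (MPK11, MKK9, MKK2) and 1 gained (MAPKKK5, 25.8 and 37.4 at 2 h) of 15. The calcium and oxidative burst list gave 3 kept (CML9, CPK11, ACA8) of 15. Among 23 photosynthesis and 15 housekeeping genes there were 0 targets, against 3.60% of all loci, a share at which lists this short can hold none. Of the housekeeping genes, 13 had no peak in any list. GAPC1 had a peak in 2 h replicate 2 and in 0 h replicate 2, and ACT7 in 2 h replicate 2.

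WRKY genes themselves were 22 of the targets, out of 71: 15 kept and 7 gained. Kept ones included WRKY15 (65.0 and 40.7 at 2 h, against 24.2 and 28.1 at 0 h) and WRKY17, whose best peak lay at another distance in 2 h replicate 1 than in the other lists. Gained genes at gained sites were WRKY71 (33.8 and 29.0 at 2 h), WRKY30 (29.5 and 20.4), WRKY41 (20.2 and 24.2), WRKY7 and WRKY6. WRKY55 (31.7 and 42.9 at 2 h) and WRKY51 counted as gained genes, but their sites held a 0 h peak that was given to a neighbour. Only 3 of the 22 had a peak of their own in 0 h replicate 1, and 14 in 0 h replicate 2. In the list of 6 VQ genes, SIB2 and JAV1 were kept and VQ29 gained.

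**Figure D5:**
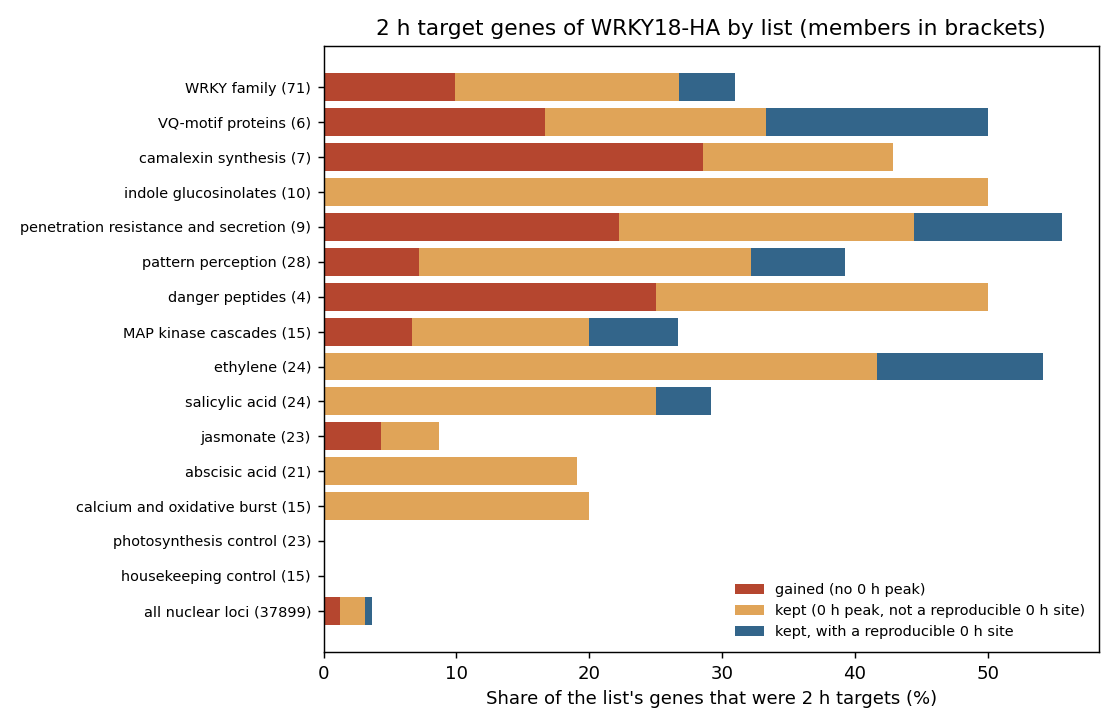
Share of each gene list (horizontal, %) that were 2 h targets of WRKY18-HA, divided into gained genes (red), kept genes with a 0 h peak but no reproducible 0 h site (yellow) and kept genes with a reproducible 0 h site (blue), with list sizes in brackets. Ethylene, salicylic acid, indole glucosinolate, abscisic acid and calcium lists hold no gained gene, against 1.26% of all loci in the bottom row. At that share, lists this short can hold none.

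At 2 h the sites of WRKY18-HA were compared with those of the other tagged lines. A 2 h peak of WRKY40-HA in either replicate overlapped 97.6% of gained sites (interval 95.9 to 98.7), 98.6% of kept sites (97.6 to 99.2) and 0 of the 4 lost sites, which allows a share of up to 60.2%. For WRKY33-HA the shares were 62.9% of gained sites (58.6 to 67.0), 72.3% of kept sites (69.3 to 75.2) and 0 of 4 lost sites. Lists of the same replicate share a WT control. With classes built in 1 replicate and compared only with the list of the other, WRKY40-HA peaks overlapped 83.0% of gained and 94.1% of kept sites of replicate 1, and 47.6% and 58.6% of those of replicate 2. For WRKY33-HA these shares were 52.9% and 65.7%, and 32.8% and 37.1%. In each of these comparisons the gained share was the lower, and it was not tested against the kept share.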

How the data were processed

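Per the submitters' processing notes, the tools were Bowtie 0.12.7, cutadapt 1.2.1, FastQC 0.11.2 and HOMER, with build TAIR10. How peaks were called, and at what threshold, is not stated by labels or headers. Each deposited list holds 1 library's peaks. The deposited HA and WT tag counts are whole reads per peak, the deposited peak score has no stated scale, fold enrichments over WT are deposited as ratios, and the −log10 q-value is given per the file headers. Genes, annotations and distances to the start are the authors' own.

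All peaks were kept and merged at an overlap of at least 1 bp (Python 3.11.15, pandas 2.3.3, scipy 1.17.1, matplotlib 3.10.9). Tags summed per shared site were tested with edgeR 4.0.16 (quasi-likelihood, TMM, threshold 0.05) in R 4.3.3, with DESeq2 1.42.0 and limma 3.58.1 as alternatives. The edgeR fit without a block and the DESeq2 fit were first run on simulated tags, while the limma and blocked fits were not. Tag sums cover each list's own peak width. Gene names and the 37899 nuclear loci came from a RefSeq table of assembly TAIR10.1, which held 1366 of 1390 target loci.

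Named sites were the 10 strongest of those in all 4 lists, the 10 strongest gained, all 4 lost, the 5 with the largest rank change in each direction, group IIa genes and list members. The members and lists were chosen with earlier results of these data known. Purine permease, SAUR-like and receptor-like kinase families were picked after their values were seen. Replicates are labelled biological, and 2 per group limit every test. Promoter sequences were not analysed here.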

Additional observations from a re-analysis of the deposited data

How the results depend on the processing

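Gained and lost shares stayed within their counting intervals when overlap was defined by 50% of the shorter peak or by maxima within 150 bp. The gained share was 22.5% among the better-scoring 50% of each list and 48.6% at a score of 20 or more, 86.4% within replicate 1 and 48.1% within replicate 2 (both chosen after seeing the data), and 38.8 to 84.6% with each library left out. The lost share was 0% at both stricter thresholds and 3.52 to 13.6% with each library left out. The difference in equal-length overlap was 0 points for pairs within a replicate number, chosen after seeing the data. The promoter share difference reversed to -0.58 points at equal length, and ranged from -1.76 to 1.81 with each library left out, reversing without 2 h replicate 2 (-0.16) and without 0 h replicate 1 (-1.76). Kept target genes were 533 within 1000 bp of the start. With a library left out there were 218 to 1447 kept, 503 to 1148 gained and 9 to 203 lost genes, and the log2 ratio of peak numbers was 0.33 to 3.16. Rank calls numbered 67 to 311 higher and 62 to 332 lower of 202 to 885 sites with a library left out, where fewer ranks have to differ. Overlaps with lists of the other replicate only averaged 76.4% (kept) and 65.3% (gained) for WRKY40-HA, and 51.4% and 42.9% for WRKY33-HA. DESeq2 called 1 site lower (AT4G00755, adjusted p = 0.00962), and edgeR called 0 to 17 sites higher and 0 to 3 lower with a library left out. The cause of these changes was not tested.

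The labels link samples of the 2 times by replicate number only, and do not say whether it marks a batch. With the replicate block, edgeR called 23 sites higher and 25 lower, rank calls were 69 higher and 62 lower, and the sign-flip p for peak number was 0.5. Deviations of same-numbered libraries correlated at 0.69 over the 195 sites. The W-box share was not run, since no promoter sequence was used here.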

Other observations

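Families grouped by the authors' gene descriptions were looked at after their values were seen, and are given as values with no test. Over all 2 h target genes, 34.8% were gained. Cysteine-rich receptor-like kinases, receptor kinases with extracellular cysteine-rich repeats, had 15 targets at 2 h among 16 genes with a peak, of which 8 were kept and 7 gained (46.7%). Kept CRK11 scored 63.4 and 59.1 at 2 h, against 28.3 and 50.3 at 0 h, and gained CRK20 scored 25.1 and 36.5 at 2 h. Glutathione S-transferases, detoxification enzymes, had 6 targets among 10 genes with a peak, with 5 gained, GSTF2 among them with 19.2 and 16.5 at 2 h. GSTU11 was the kept one, and its best peaks of 2 h and 0 h lay at different sites. Wall-associated kinases had 2 kept and 3 gained targets among 7 genes with a peak, and the gained WAKL2, WAKL4 and WAKL5 had 2 h scores between 11.3 and 35.2. The 11.3 of WAKL2 in 2 h replicate 2 lay near the lowest score of that list (10.034).

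Purine permeases gave 5 kept and 0 gained targets among 6 genes with a peak. Besides PUP7 and PUP1, AT4G18205 scored 62.3 and 40.8 at 2 h, against 19.8 and 26.4 at 0 h, and PUP8 25.7 and 25.9 at 2 h, against 13.4 in 0 h replicate 2. SAUR-like auxin-responsive genes held 2 of the 6 lost genes and also 8 targets at 2 h among 12 genes with a peak, of which 7 were kept. AT1G16510 of this family scored 52.2 and 79.8 at 2 h, against 49.0 in 0 h replicate 2, and AT3G12830 44.7 and 51.0 at 2 h, against 34.8 there. Genes of the description VQ motif-containing gave 9 kept and 3 gained targets among 13 with a peak. Family members without a peak are not counted in any of these families. AT3G56880 scored 58.2 and 42.3 at 2 h, against 14.5 in 0 h replicate 2.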
